A study of Homo sapiens with 12 samples.

Results

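Messenger RNA of 10 genes that set the pace of G1 was followed across 12 RNA-seq libraries of MCF10A, a human breast epithelial line that forms no tumours. The genes are the D cyclins CCND1, CCND2 and CCND3, their kinase partners CDK4 and CDK6, the CIP/KIP inhibitors CDKN1A, CDKN1B and CDKN1C, and the INK4 inhibitors CDKN2C and CDKN2D. They were chosen by name out of 23459 Entrez gene IDs, and all 10 were among the 14775 genes that passed the filter on low counts. Every library came from cells that carried a doxycycline-inducible allele of YAP5SA, a form of the coactivator YAP that escapes Hippo kinase control. Infection had given them either an expression vector for JUN or an empty one, and they received either 100 ng/ml doxycycline (Dox) or the solvent ethanol (EtOH). The groups are named by vector and treatment (vector EtOH and vector Dox, JUN EtOH and JUN Dox), with 3 libraries each, which the methods describe as biological replicates. Infected cells were selected with antibiotics and are described neither as single clones nor as pools, and no group lacked the YAP5SA allele or had Dox without it.

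D-type cyclins bind CDK4 or CDK6, and the active complexes phosphorylate the retinoblastoma protein, which releases E2F factors to switch on genes for S phase. INK4 proteins (p18 from CDKN2C, p19 from CDKN2D) bind CDK4 and CDK6 directly and keep the D cyclins off. CIP/KIP proteins (p21 from CDKN1A, p27 from CDKN1B, p57 from CDKN1C) block CDK2 complexes and are also held by cyclin D complexes. In mammary epithelium, CCND1 is the D cyclin best known for a role in growth of the gland.

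Levels are CPM, that is counts divided by a library size that was scaled by TMM, with means ± SD over the 3 libraries of a group. Differences are log2 fold changes from an edgeR quasi-likelihood fit to all 12 libraries, with standard error (SE), and a gene was called at a Benjamini-Hochberg adjusted p under 0.05 over the 14775 genes. Both comparisons of JUN share a group of libraries with each induction, and such values are set side by side without a test between them. The inductions themselves were compared by the interaction, which subtracts the log2 induction of vector cells from that of JUN cells. Each result was recomputed under 21 or 22 alternatives, which were other tools, scalings and filters, corrections for GC content, and the omission of each library in turn.

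Library totals ran from 18594867 to 28993487 counts. JUN, the gene carried by the vector, had 35.5 to 55.0 CPM in vector EtOH and 1064 to 1399 CPM in JUN EtOH, and 186 to 194 CPM in vector Dox against 1146 to 1325 in JUN Dox, as the labels say. In vector cells JUN was thus higher with Dox than with EtOH. The comparison of JUN with induction therefore spans a smaller difference in JUN mRNA than the comparison without induction. YAP1, whose counts may include the YAP5SA transcript, had 171 to 191 CPM in vector EtOH and 216 to 273 in vector Dox, which edgeR did not call (adjusted p 0.0819). In JUN cells YAP1 had 211 to 249.4 CPM with EtOH, within the vector Dox range or just below it, and 208 to 365 with Dox, so the groups overlapped and induction was not called there either (edgeR adjusted p 0.308). These counts therefore give no check of the induction labels. The line's basal epithelial identity was visible, with 8 of 8 basal markers detected. They summed to 8843 to 9488 CPM with EtOH and 4910 to 6119 with Dox in vector cells. In JUN cells they summed to 9567 to 10939 with EtOH and 6178 to 8655 with Dox. On induction 7 of the 8 were called lower in vector cells (14.4% of all genes) and 5 in JUN cells (10.3%). With JUN alone 3 were called higher and 1 lower (20.1% and 18.9% of all genes). In that comparison LAMB3 went from 1444 to 3566 CPM and ITGB4 from 758 to 449 CPM (edgeR adjusted p 1.24e-06 and 0.0035). Luminal markers (6 genes) summed to 244 to 251 CPM with EtOH and 526 to 751 with Dox in vector cells. In JUN cells the luminal sums were 693 to 917 CPM with EtOH and 1451 to 1933 with Dox. They were mostly AREG, an EGFR ligand (213 CPM in vector EtOH and 1640 in JUN Dox, means of 3). With JUN, other luminal markers went the other way: GATA3 and FOXA1 were lower without induction (-0.34 and -0.45 on the log2 scale, edgeR adjusted p 0.0477 and 0.0393), and GATA3 was lower with it (-0.65, edgeR adjusted p 0.0011). Fibroblast markers (6 genes) were low but moved with the groups, with sums of 8.57 to 12.3 CPM with EtOH and 5.14 to 5.74 with Dox in vector cells, and 19.8 to 32.9 with EtOH and 14.5 to 23.6 with Dox in JUN cells. LUM and DCN rose with JUN alone (3.09 and 1.56 on the log2 scale, edgeR adjusted p 1.69e-06 and 0.00103), and COL1A2 was at 0 counts in 11 of 12 libraries. Immune and endothelial markers (5 genes) summed to 30.0 to 31.7 and 17.0 to 19.4 CPM in vector cells with EtOH and Dox, and to 78.5 to 93.9 and 50.9 to 68.9 in JUN cells. Most of this was CD68, a gene of lysosomes, which rose by 1.55 with JUN alone (edgeR adjusted p 2.29e-07), while CD3E was at 0 in all 12 libraries and PTPRC at 3 or fewer counts. Of the 2 genes of this list that were tested, 1 was called higher and 1 lower with JUN alone. On induction both were called lower, in vector and in JUN cells. What part these shifts had in the results was not tested. Libraries also differed in how counts followed the GC content of exons, with JUN Dox replicates 1 and 3 farthest apart (-0.12 and 0.11 log2 per 10% GC). In bulk RNA, fewer cells of a kind and less RNA per cell cannot be told apart.

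YAP5SA induction in vector cells changed 8 of the 10 genes, 5 upward and 3 downward, where 30.1% of all genes were called (15.6% higher and 14.4% lower). The D cyclins CCND1 and CCND2, both kinases and CDKN1A rose, while CDKN1B, CDKN1C and CDKN2C fell. The JUN vector without induction changed 5 (39.0% of all genes), with CCND2 and CDK6 higher (20.1% of all genes were higher) and CCND3, CDK4 and CDKN1C lower (18.9%). Induction in JUN cells changed 6 (21.4% of all genes), with CCND1, CCND2, CDK4 and CDK6 higher (11.2%) and CDKN1B and CDKN1C lower (10.3%). JUN with induction changed 6 (35.6% of all genes), with CDKN2C higher (18.4%) and CCND1, CCND3, CDK4, CDKN1A and CDKN1C lower (17.2%). The interaction was called for 2, CCND1 and CCND2, both lower, where 1.12% of all genes were called (0.826% lower and 0.291% higher). The median log2 change over the 10 genes was 0.21, -0.11, 0.016 and -0.44 in the pairwise comparisons and -0.18 in the interaction, against 0.0072, 0.00056, 0.0032, 0.0030 and 0.012 over all genes tested.

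The counts of called genes leaned on single libraries in places. Without vector EtOH replicate 1 induction in vector cells called 5 of the 10 genes, and over all genes the calls went from 4443 to 3540. Without JUN EtOH replicate 2 or without JUN Dox replicate 2 induction in JUN cells called 2 of the 10, and over all genes the calls also fell, from 3168 to 2082 and 2310. Groups did not overlap for 10 of 10 genes on induction in vector cells (43.9% of all genes), for 7 with JUN alone (57.8%), for 8 on induction in JUN cells (39.3%) and for 7 with JUN under induction (43.4%).

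**Figure D1:**
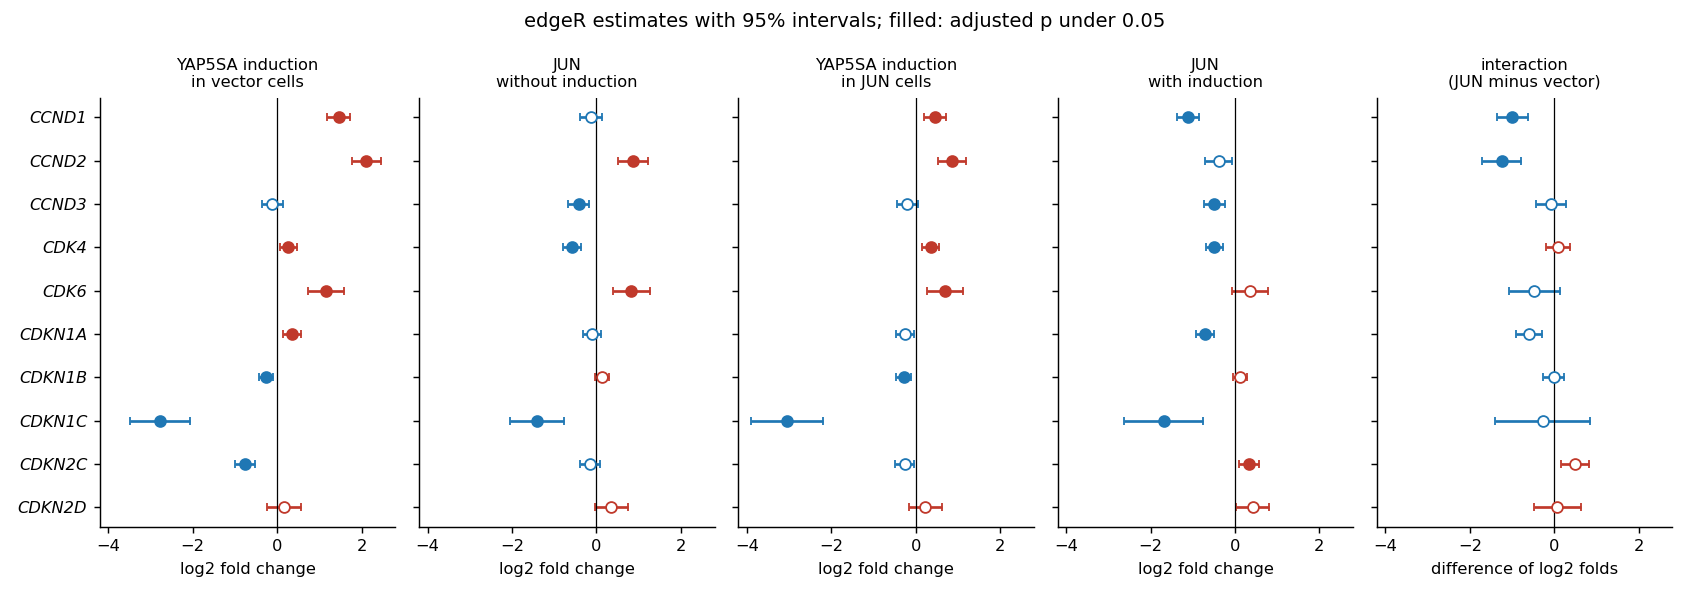
Log2 fold changes (x axis) of the 10 genes (y axis) in the 4 pairwise comparisons, and the difference between the inductions in the last panel, from edgeR with 95% intervals over 12 libraries. Filled points passed an adjusted p under 0.05, red is above and blue below 0. CDKN1C lies left of 0 with a filled point in all 4 pairwise panels, and the last panel has filled points for CCND1 and CCND2.

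Among the D cyclins, induction raised CCND1 and CCND2 strongly in vector cells and less in JUN cells, and neither induction of CCND3 was called. The study's own list of genes most induced by YAP, drawn from a separate experiment, contains CCND1 and CCND2 and no other gene of the 10. The study clustered that list on RNA-seq of the same groups as here, so its clusters and these values are not independent. It placed CCND1 in cluster 1, whose induction it describes as completely blunted by JUN. It placed CCND2 in cluster 2, where it reports at most a very weak JUN effect. Here the interaction was called for both (-0.99 and -1.25 log2), but the values behind it differed. For CCND1, JUN alone was not called and JUN with induction was lower (-1.12). For CCND2, JUN alone was higher (0.87) and JUN with induction was not called (-0.38).

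CCND1 (Entrez gene 595, GRCh37 chromosome 11, 69455924 to 69469242, plus strand), which encodes cyclin D1, had 268.9, 208.3 and 249.3 CPM in vector EtOH and 583, 731 and 679 CPM in vector Dox. In JUN cells it had 229.9, 204 and 233 CPM with EtOH and 281, 321 and 316 CPM with Dox. The 3 vector Dox libraries stood apart above all others, JUN Dox came next without touching either EtOH group, and the EtOH groups overlapped. Induction raised CCND1 by 1.46 (SE 0.12, a 2.74-fold rise, edgeR adjusted p 6.23e-07) in vector cells, from 242 ± 30.9 to 664 ± 75.2 CPM. In JUN cells the rise was 0.46 (SE 0.12, a 1.38-fold rise, edgeR adjusted p 0.0141), from 222 ± 15.9 to 306 ± 22.1 CPM. That smaller rise lost its call without JUN EtOH replicate 2 (edgeR adjusted p 0.0758) and without JUN Dox replicate 2 (0.0599). The difference between the inductions was -0.99 (SE 0.17, 95% interval -1.36 to -0.63, edgeR adjusted p 0.00879), and it stayed called in all 21 alternatives, with adjusted p from 2.38e-06 to 0.0351. JUN alone left CCND1 within the replicate spread (-0.12, 95% interval -0.38 to 0.14), and under induction JUN cells had 2.17-fold less than vector cells (log2 -1.12, SE 0.12, edgeR adjusted p 7.41e-06). The exons of CCND1 share 497 bases with LTO1 on the other strand, whose mean count of 186 compares with 8317 for CCND1.

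CCND2 (Entrez gene 894, chromosome 12, 4378937 to 4414519, plus strand), which encodes cyclin D2, was scarcer per length (1.23 CPM per kb of merged exons in vector EtOH against 50.9 for CCND1). It had 10.6, 8.78 and 10.1 CPM in vector EtOH and 34.5, 48.7 and 44.5 in vector Dox. JUN EtOH libraries had 17.6, 19.6 and 16.7 CPM and JUN Dox libraries 26.04, 38.99 and 32.97. Both EtOH groups lay below both Dox groups, JUN EtOH lay above vector EtOH, and the Dox groups overlapped. Induction raised CCND2 by 2.11 in vector cells (SE 0.16, 4.32-fold, edgeR adjusted p 1.83e-07) and by 0.86 in JUN cells (SE 0.15, 1.82-fold, edgeR adjusted p 0.00106). JUN alone raised it by 0.87 (SE 0.16, 1.83-fold, edgeR adjusted p 0.000809), a comparison in which CCND1 was not called. The interaction was -1.25 (SE 0.22, 95% interval -1.72 to -0.78, edgeR adjusted p 0.00967), called in all 21 alternatives, with adjusted p from 3.63e-05 to 0.0407. With induction the difference between JUN and vector cells did not pass the test (-0.38, SE 0.15, edgeR adjusted p 0.0608), but it was called in 6 of 22 alternatives, among them without vector Dox replicate 1 (0.015) and without JUN Dox replicate 2 (0.026). The exons of CCND2 share 999 bases with an unnamed protein-coding gene on the same strand and 162 with CCND2-AS1 on the other. Neither had a matched count, so their part in the CCND2 counts was not tested.

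CCND3 (Entrez gene 896, chromosome 6, 41902672 to 42018095, minus strand), which encodes cyclin D3, was lower with JUN, and neither induction was called. It spanned 202 to 214 CPM with EtOH and 189 to 196 with Dox in vector cells, and 143 to 174 with EtOH and 114 to 161 with Dox in JUN cells, so every JUN library was below every vector library. With JUN, CCND3 fell by 0.42 without induction and fell by 0.49 with it (log2, SE 0.12 for both, edgeR adjusted p 0.0123 and 0.00477). The former call was lost without JUN EtOH replicate 1 (edgeR adjusted p 0.051) or 2 (0.0627). Induction gave -0.12 (95% interval -0.37 to 0.13) in vector cells and -0.20 (-0.45 to 0.06) in JUN cells.

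Per kilobase of merged exons, the summed D cyclin level was 88.4 ± 5.96 CPM per kb with EtOH and 178 ± 17.3 with Dox in vector cells, and 76.2 ± 5.60 with EtOH and 92.2 ± 8.93 with Dox in JUN cells. CCND1 made up 57.4 ± 3.62%, 78.1 ± 1.34%, 61.3 ± 1.22% and 69.9 ± 2.28% of this sum, and CCND2 1.39%, 2.97%, 2.97% and 4.42%. The share of CCND1 did not overlap between EtOH and Dox libraries in vector or in JUN cells, nor between the Dox groups (two-sided exact permutation p 0.1 for each, the smallest that 3 against 3 libraries allow). Divided by the longest transcript, the vector EtOH share of CCND1 fell to 39.1% and CCND3 led with 59.96%, because the merged exons of CCND3 are far longer than its longest transcript (5761 against 2394 bases). The ranking of CCND1 over CCND3 without induction therefore depends on the length used, whereas CCND1 led in both Dox groups with either (64.2% and 54.0% with the longest transcript).

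**Figure D2:**
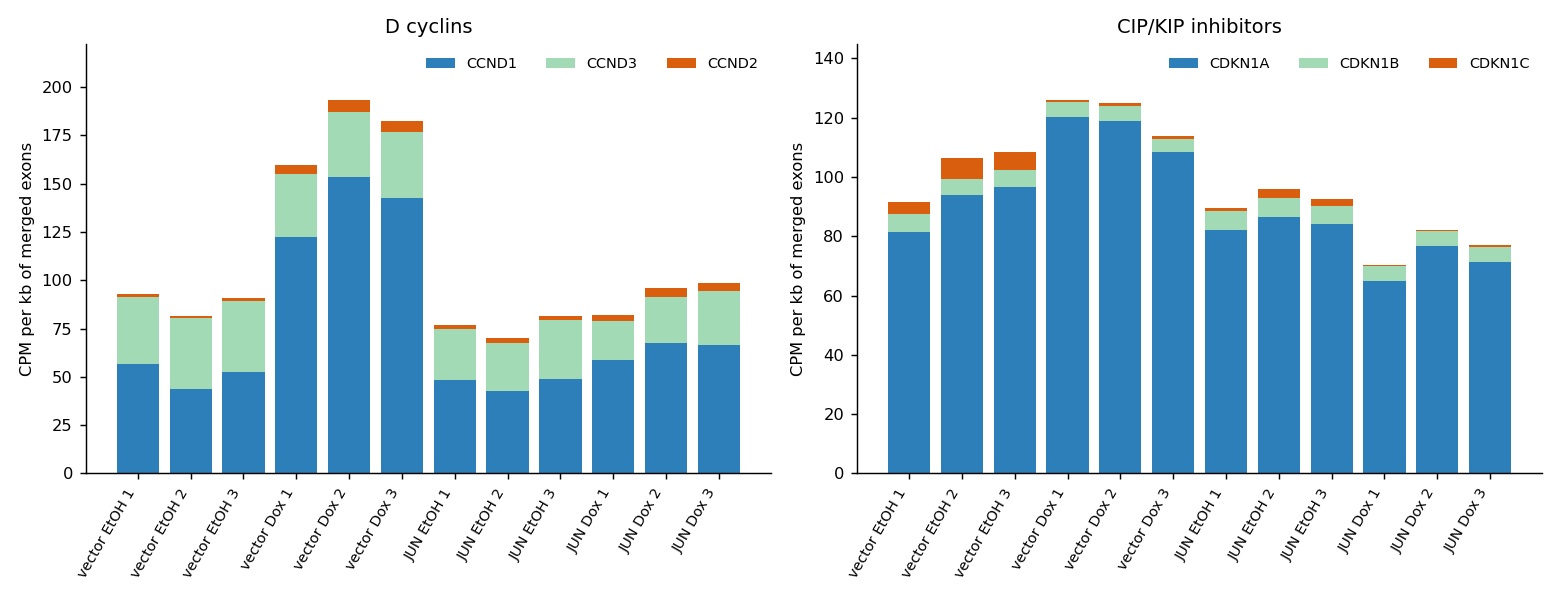
Stacked bars of CPM per kb of merged exons (y axis) for the D cyclins (left) and the CIP/KIP inhibitors (right) in each of the 12 libraries (x axis). The blue CCND1 part grows in the vector Dox libraries, where the 3 bars reach 159 to 193, and the CIP/KIP bars are lowest in JUN Dox, at 70.2 to 82.0.

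Both kinase genes rose with YAP5SA in either cell type, and JUN without induction moved them in opposite directions. CDK4 fell with JUN and CDK6 rose, and under induction CDK4 was lower with JUN while CDK6 was not called. Each kinase can pair with any D cyclin.

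CDK4 (Entrez gene 1019, chromosome 12, 58141510 to 58149796, minus strand) had 129, 145 and 137 CPM with EtOH and 179.8, 155 and 161 with Dox in vector cells, and 88.2, 91.2 and 95.2 with EtOH and 106, 122 and 124 with Dox in JUN cells. The 4 groups did not overlap, in the ascending order JUN EtOH, JUN Dox, vector EtOH, vector Dox. With JUN, CDK4 fell by 0.58 without induction (log2, SE 0.10, edgeR adjusted p 0.000301) and fell by 0.49 with it (SE 0.10, edgeR adjusted p 0.00113), calls that held in all 22 alternatives. Induction raised it by 0.36 in JUN cells (SE 0.10, edgeR adjusted p 0.0146) and by 0.27 in vector cells (SE 0.10, edgeR adjusted p 0.0445). The rise in vector cells was marginal: it was called in 7 of 22 alternatives, with adjusted p up to 0.156. The rise in JUN cells lost its call without JUN EtOH replicate 1 (0.0665) or 2 (0.0542) and without JUN Dox replicate 2 (0.0634). The interaction was 0.09 (95% interval -0.20 to 0.38). CDK4 shares 1369 exon bases with TSPAN31 on the opposite strand, and no use of strand in counting is given in the sources used here. The mean counts were 2951 for CDK4 and 440.5 for TSPAN31, whose log2 fold changes had the opposite sign in the 4 pairwise comparisons (-0.67, 0.26, -0.49 and 0.45).

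CDK6 (Entrez gene 1021, chromosome 7, 92234235 to 92465887, minus strand) had 107, 71.9 and 92.0 CPM with EtOH and 154, 249.7 and 203 with Dox in vector cells, and 188, 157 and 138 with EtOH and 322, 256 and 199.97 with Dox in JUN cells. All vector EtOH libraries were below all others, and the remaining 3 groups overlapped with their neighbours in order. Induction raised CDK6 by 1.16 in vector cells (SE 0.20, 2.23-fold, edgeR adjusted p 0.000534) and JUN alone by 0.83 (SE 0.20, 1.78-fold, edgeR adjusted p 0.00497). In JUN cells induction added 0.69 (SE 0.20, edgeR adjusted p 0.0225), a call lost without JUN EtOH replicate 2 (0.0775) or 3 (0.0911) or without JUN Dox replicate 1 (0.0922) or 2 (0.0559). JUN with induction gave 0.36 (95% interval -0.06 to 0.78) and the interaction -0.47 (-1.07 to 0.13), neither called. CDK6 has GC-poor exons (40.4%), and its level within JUN Dox was highest in replicate 1 and lowest in replicate 3, the libraries with the lowest and highest GC trend. With a GC term for each library the calls on induction in vector cells and on JUN alone stayed.

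Promoters of these kinases are shown because the pair responded to JUN without induction in opposite directions. The sequences are the 250 bases before a RefSeq transcription start on GRCh38.p14, written 5′ to 3′ on the gene's strand. Capitals mark CACGTG (E-box, bound by MYC family factors) and GGGCGG (GC box, bound by SP factors) on either strand. CDK4 lies at chr12:57752311-57752560 and CDK6 at chr7:92836574-92836823, both on the minus strand.
CDK4: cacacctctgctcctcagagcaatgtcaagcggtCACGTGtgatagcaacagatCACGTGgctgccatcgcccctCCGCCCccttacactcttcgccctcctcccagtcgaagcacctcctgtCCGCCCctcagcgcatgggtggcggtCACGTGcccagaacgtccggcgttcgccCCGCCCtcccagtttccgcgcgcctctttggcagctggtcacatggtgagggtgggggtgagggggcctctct
CDK6: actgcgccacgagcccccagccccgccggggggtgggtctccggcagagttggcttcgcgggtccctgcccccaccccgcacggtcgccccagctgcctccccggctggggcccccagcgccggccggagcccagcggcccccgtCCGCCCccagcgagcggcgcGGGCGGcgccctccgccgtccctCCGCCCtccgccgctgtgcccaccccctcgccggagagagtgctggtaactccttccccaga
The window of CDK4 holds 3 E-boxes, first bases at -216, -196 and -101 from the start, and 3 GC boxes. The CDK6 window shown holds 3 GC boxes and no E-box. CDK6 has a further RefSeq start, not shown, whose window holds 0 GC boxes and 0 E-boxes. Of 35116 RefSeq promoter windows of this length, 6.34% hold CACGTG and 42.6% GGGCGG. The AP-1 letters TGANTCA (6.57% of windows) and the CRE letters TGACGTCA (1.65%) were found in none of the 12 windows of the 7 genes with an entry. With shares this low, finding none in 12 windows is no result about these genes, and sites farther from the start were not searched. The TEAD letters GGAATG (11.9%) were found in windows of CDKN2C (2 starts) and CCND3 (1 start). The genes without an entry are CCND1, CCND2 and CDKN1C.

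The CIP/KIP inhibitors split 3 ways. CDKN1A rose on induction in vector cells and was lower with JUN under induction, CDKN1B fell slightly on induction in both cell types, and CDKN1C fell steeply with each manipulation.

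CDKN1A (Entrez gene 1026, chromosome 6, 36644237 to 36655114, plus strand), which encodes p21 and is a standard target of p53, had 244, 281 and 289.6 CPM in vector EtOH and 361, 356.5 and 325 in vector Dox. JUN EtOH libraries had 246, 259.5 and 252 CPM and JUN Dox libraries 194, 229.6 and 214. Vector Dox was above every other library, JUN Dox was below every other library, and the EtOH groups overlapped. Induction raised CDKN1A by 0.36 in vector cells (SE 0.10, 1.28-fold, edgeR adjusted p 0.0159), a call lost without vector EtOH replicate 1 (0.0853). In JUN cells the value was -0.25 (SE 0.10, edgeR adjusted p 0.0996), not called by edgeR and called by DESeq2 (0.0353) and with a GC term (0.0456). JUN cells under induction had 1.63-fold less than vector cells (log2 -0.71, SE 0.10, edgeR adjusted p 9.41e-05), and without induction the difference was -0.10 (95% interval -0.32 to 0.11). The interaction was -0.60 (SE 0.14, 95% interval -0.91 to -0.30) with an edgeR adjusted p of 0.0628. It was called in 5 of 21 alternatives, over which the adjusted p ran from 0.00119 (DESeq2) to 0.178. CDKN1A shares 146 exon bases with DINOL, a long noncoding RNA gene on the other strand without a matched count.

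The promoter of CDKN1A is shown for its run of GC boxes, at chr6:36678464-36678713 on the plus strand of GRCh38.p14, with GGGCGG on either strand in capitals.
CDKN1A: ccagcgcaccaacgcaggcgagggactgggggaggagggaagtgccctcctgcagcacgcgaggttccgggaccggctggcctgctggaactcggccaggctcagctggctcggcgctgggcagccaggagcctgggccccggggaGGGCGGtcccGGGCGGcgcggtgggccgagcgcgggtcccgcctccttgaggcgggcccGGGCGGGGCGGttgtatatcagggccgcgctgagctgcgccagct
It holds 4 GC boxes, first bases at -104, -94, -45 and -40, of which the last pair overlap by 1 base, and no E-box.

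CDKN1B (Entrez gene 1027, chromosome 12, 12838432 to 12875303, plus strand), which encodes p27, changed little and with small spread. It ranged from 51.4 to 55.9 CPM with EtOH and 42.8 to 45.5 with Dox in vector cells, and 58.1 to 59.6 with EtOH and 47.4 to 48.8 with Dox in JUN cells, and no group overlapped another. On induction it fell by 0.27 with the empty vector and fell by 0.28 with the JUN vector (log2, SE 0.08 for both, edgeR adjusted p 0.0223 and 0.0216). The former was lost without vector EtOH replicate 1 (0.0915) or 3 (0.0545) or without vector Dox replicate 3 (0.0855), and the latter with no filter on low counts and without any 1 of the JUN EtOH libraries or JUN Dox replicate 2, with adjusted p up to 0.0796. The interaction was -0.016 (95% interval -0.26 to 0.23), the narrowest interval of the 10 genes.

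CDKN1C (Entrez gene 1028, chromosome 11, 2904443 to 2907005, minus strand), which encodes p57 and is imprinted, had the largest pairwise changes of the 10 genes. Its CPM were 10.6, 17.3 and 14.9 with EtOH and 1.88, 2.34 and 1.98 with Dox in vector cells, and 2.68, 7.50 and 5.77 with EtOH and 0.301, 0.562 and 0.959 with Dox in JUN cells. The groups did not overlap, in the descending order vector EtOH, JUN EtOH, vector Dox, JUN Dox. Counts were low at the bottom, with 6, 13 and 27 reads in the JUN Dox libraries against 279, 346 and 331 in vector EtOH. On induction CDKN1C fell by 2.78 in vector cells (log2, SE 0.33, 6.86-fold, edgeR adjusted p 1.69e-05) and fell by 3.05 in JUN cells (SE 0.40, 8.31-fold, edgeR adjusted p 7.54e-05). With JUN it fell by 1.41 without induction (SE 0.30, 2.67-fold, edgeR adjusted p 0.00202) and fell by 1.69 with it (SE 0.44, 3.23-fold, edgeR adjusted p 0.00778). All 4 calls held in all 22 alternatives. The interaction was -0.28 with a wide interval (-1.40 to 0.85), so these libraries do not show whether the induction effects differ between the cell types. CDKN1C has GC-rich exons (67.3%), and JUN Dox replicates 1 and 3, which had the lowest and highest GC trend, had its lowest and highest level in that group.

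Of the 9 genes listed as neighbours of CDKN1C at 11p15, 8 were in the table and tested, and 1 rose and 1 fell on induction in vector cells (15.6% and 14.4% of all genes), while 0 rose and 1 fell in JUN cells (11.2% and 10.3%). These counts are about the shares over all genes and are no result about the neighbours as a group. The gene that fell in both was OSBPL5, which encodes a lipid transfer protein, from 135 to 49.0 CPM in vector cells (log2 -1.46, edgeR adjusted p 3.84e-07) and from 104 to 49.3 CPM in JUN cells (-1.07, edgeR adjusted p 1.56e-05). JUN lowered 2 of the 8 in either setting (18.9% of all genes without and 17.2% with induction). The median over the 8 was 0.11 and 0.04 for the inductions and -0.31 and -0.11 for JUN without and with induction.

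Per kilobase of merged exons, CDKN1A made up most of the CIP/KIP signal, with 88.7 ± 0.488% with EtOH and 95.4 ± 0.173% with Dox in vector cells, and 90.9 ± 0.826% with EtOH and 92.8 ± 0.587% with Dox in JUN cells. Per kb the 4 groups did not overlap (two-sided exact permutation p 0.1 for each comparison, the smallest possible). Divided by the longest transcript, the groups also stayed apart, with 85.4% to 86.5% and 92.9% to 93.4% in vector cells with EtOH and Dox. JUN cells then had 86.7% to 88.0% with EtOH and 88.2% to 90.0% with Dox. The separation did not hold without any length. Without division by length, vector EtOH (78.6% to 81.0%), JUN EtOH (79.5% to 80.2%) and JUN Dox (79.8% to 82.7%) overlapped, and the mean with JUN alone was slightly below that of vector EtOH (79.8% against 79.99%). The summed CIP/KIP level was 102 ± 9.11, 122 ± 6.75, 92.8 ± 3.31 and 76.4 ± 5.89 CPM per kb. Both this sum and that of the D cyclins were highest in vector Dox.

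**Figure D3:**
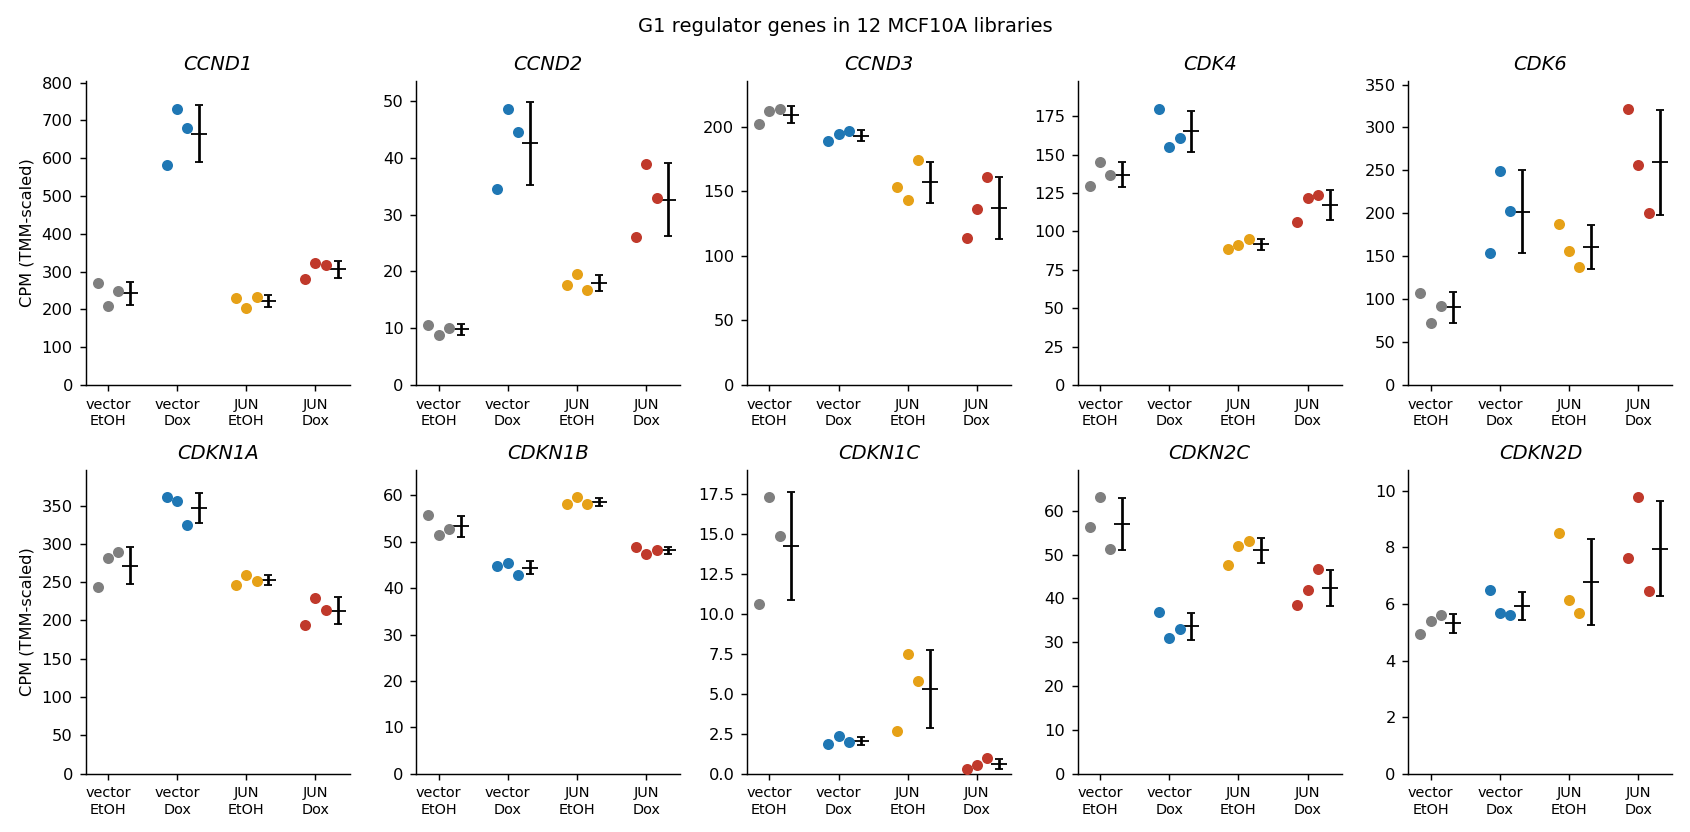
CPM (y axes, from 0 and separate for each gene) of the 10 genes in the 12 libraries. Points are libraries, and black marks are the group mean with its SD. CCND1 stands at 583 to 731 CPM in vector Dox and at most at 321 elsewhere, and CDKN1C descends from 10.6 to 17.3 CPM in vector EtOH to under 1 CPM in JUN Dox.

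**Figure D4:**
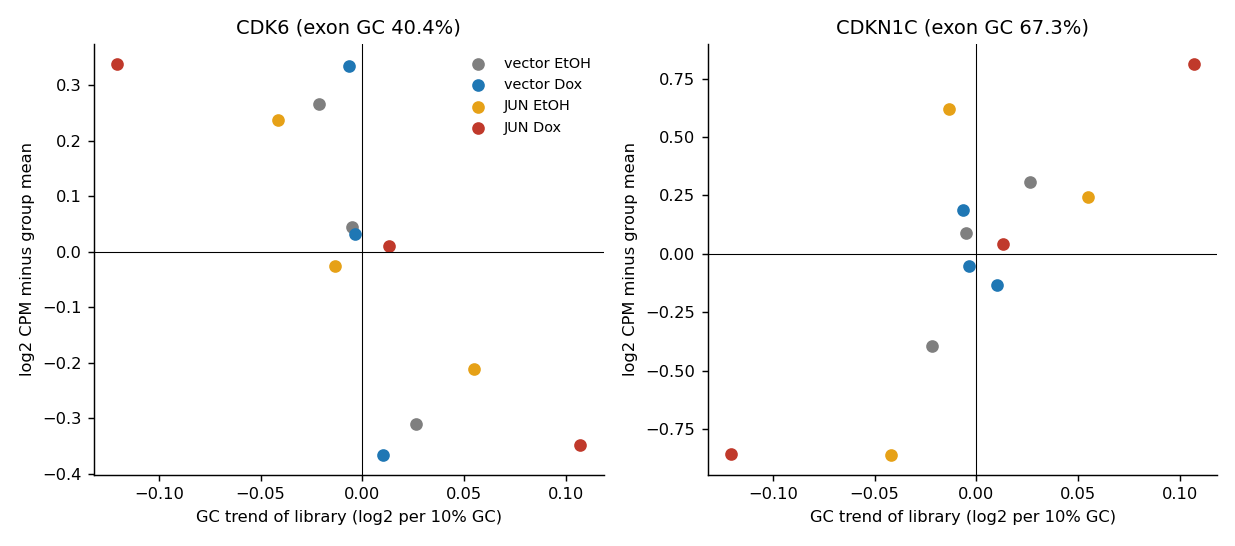
Log2 CPM minus the group mean (y axis) of CDK6 and CDKN1C against the GC trend of each library (x axis, log2 per 10% exon GC), coloured by group. Within JUN Dox, whose libraries spread from -0.12 to 0.11 on the x axis, CDK6 goes down and CDKN1C goes up from left to right.

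Of the INK4 genes, which restrain CDK4 and CDK6, CDKN2C fell on induction in vector cells and CDKN2D was not called in any comparison. CDKN2C (Entrez gene 1031, chromosome 1, 51426417 to 51440306, plus strand) had 56.4, 63.1 and 51.3 CPM with EtOH and 36.98, 30.9 and 32.9 with Dox in vector cells, and 47.7, 52.0 and 53.2 with EtOH and 38.6, 41.9 and 46.7 with Dox in JUN cells. Dox libraries lay below EtOH libraries throughout, vector Dox lowest, and the EtOH groups overlapped. On induction CDKN2C fell by 0.76 in vector cells (SE 0.11, 1.69-fold, edgeR adjusted p 0.00011), a call that held in all 22 alternatives. In JUN cells the value was -0.26 (SE 0.11, edgeR adjusted p 0.103), not called, and the interaction of 0.50 (95% interval 0.16 to 0.83) was not called either (edgeR adjusted p 0.196). Under induction JUN cells had more CDKN2C by 0.34 (SE 0.11, edgeR adjusted p 0.0287), which was lost without vector Dox replicate 2 (0.0753) or 3 (0.0792) or without JUN Dox replicate 2 (0.0629) or 3 (0.101), and in a fit to the 6 libraries alone. CDKN2C shares 617 exon bases with an unnamed long noncoding RNA gene on the other strand. That gene had no matched count, so its part in the CDKN2C counts was not tested.

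CDKN2D (Entrez gene 1032, chromosome 19, 10677136 to 10679735, minus strand) was low, at 4.94 to 5.61 CPM with EtOH and 5.62 to 6.50 with Dox in vector cells, and 5.68 to 8.49 with EtOH and 6.47 to 9.77 with Dox in JUN cells. The largest of its differences was JUN with induction (0.42, 95% interval 0.03 to 0.81, edgeR adjusted p 0.0835), and with loess offsets on GC both JUN effects were called higher (0.0328 without and 0.0321 with induction). The INK4 genes of the 9p21 locus, CDKN2A (p16) and CDKN2B (p15), had 0 counts in all 12 libraries, which allows up to 3 counts or 0.107 to 0.150 CPM per library, for counting error only. MCF10A is known to lack this locus.

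By closeness of the 4 group means of log2 CPM among 11404 genes of at least 5 CPM, the genes nearest to CCND1 were DNAJC6, TPM1 and LINC00842 (Euclidean distance 0.24, 0.27 and 0.28 log2). Nearest to CCND2 were GPRC5A, SYDE1 and TUFT1 (0.25, 0.28 and 0.37), and to CDK6 SLC16A9, FSTL3 and ERBIN (0.11, 0.12 and 0.13). For CDKN1C the nearest genes were UNC5B, TNS1 and CD14, at larger distances of 0.71, 0.85 and 0.87. The distance is not scaled to the size of a gene's changes, which were largest for CDKN1C, so these values do not show an unusual pattern. UNC5B had 17.7 CPM with EtOH and 2.39 with Dox in vector cells, and 6.10 and 1.30 in JUN cells. TPM1, which encodes an actin-binding tropomyosin, had 39.1 CPM with EtOH and 128 with Dox in vector cells, and 33.4 and 47.4 in JUN cells.

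The next genes of the pathway were taken from lists written by role. Over all genes tested, 15.6% were higher and 14.4% lower on induction in vector cells, 11.2% and 10.3% on induction in JUN cells, 20.1% and 18.9% with JUN alone, and 18.4% and 17.2% with JUN under induction, and the counts of each list are to be read against these shares. Of 8 genes for G1/S cyclins, CDK2 and CDK activation, 7 rose and 0 fell on induction in vector cells (15.6% of all genes rose), and 6 rose and 0 fell in JUN cells (11.2% of all genes rose, list medians 0.54 and 0.48). JUN lowered 3 without induction and 2 with it, where 18.9% and 17.2% of all genes were lower, and raised 0 (list medians -0.13 and -0.22). CDC25A, the phosphatase that activates CDK2, went from 53.8 to 111 CPM in vector cells (log2 1.05, SE 0.08, edgeR adjusted p 2.51e-07) and from 44.7 to 73.3 CPM in JUN cells (0.71, SE 0.08, edgeR adjusted p 2.54e-05). Among 18 E2F-driven S-phase genes, 10 rose and 1 fell on induction in vector cells and 12 rose and 0 fell in JUN cells, while JUN lowered 12 without and 10 with induction and raised 0. Their medians were 0.32, 0.37, -0.42 and -0.35, and their median interaction was 0.073. CDC6, a replication licensing factor, rose by 1.05 in vector cells (from 53.2 to 110 CPM, edgeR adjusted p 1.455e-06) and by 0.79 in JUN cells (from 49.8 to 86.1 CPM, edgeR adjusted p 4.57e-05).

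Pocket proteins, E2F and DP factors (13 genes) gave 6 higher and 2 lower on induction in vector cells (15.6% and 14.4% of all genes). In JUN cells induction gave 6 higher and 1 lower (11.2% and 10.3%). JUN gave 1 higher and 3 lower without induction (20.1% and 18.9%) and 3 and 3 with it (18.4% and 17.2%). The counts with JUN and those lower on induction were near or below these shares and are no result about the list. E2F2, an activating E2F, fell by 0.94 with JUN alone (from 20.7 to 10.8 CPM, edgeR adjusted p 5.95e-05) and fell by 0.96 with JUN under induction (from 18.6 to 9.51 CPM, edgeR adjusted p 4.91e-05). Of 12 genes of the ubiquitin ligases that degrade G1 regulators, induction raised 3 in vector cells (15.6% of all genes) and 1 in JUN cells (11.2%) and lowered 0, and JUN lowered 1 without induction (18.9%) and 2 with it (17.2%). These counts were near or below the shares over all genes and are no result about the list. SKP2, the F-box protein that targets p27, p21 and p57, was the one with a called interaction (-0.79, SE 0.13, edgeR adjusted p 0.00479). SKP2 had 56.1 ± 0.938 CPM with EtOH and 142 ± 1.99 with Dox in vector cells, and 39.4 ± 0.659 with EtOH and 57.7 ± 6.22 with Dox in JUN cells. Induction raised it by 1.34 in vector cells and by 0.55 in JUN cells (edgeR adjusted p 5.65e-08 and 0.000589).

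Of 12 p53 target genes other than CDKN1A, 2 rose and 2 fell on induction in vector cells, which is near the shares over all genes (15.6% and 14.4%) and no result about the list. In JUN cells 1 rose and 3 fell on induction (11.2% and 10.3% of all genes). JUN raised 3 and lowered 5 without induction (20.1% and 18.9%) and raised 2 and lowered 7 with it (18.4% and 17.2%). GADD45A, a stress-response gene, rose by 1.31 on induction in vector cells (from 16.1 to 39.97 CPM, edgeR adjusted p 0.000954), and GDF15, a secreted stress factor, fell by 2.63 with JUN alone (from 28.6 to 4.59 CPM, edgeR adjusted p 1.07e-07). BBC3, a proapoptotic gene, fell on induction in both cell types (-0.89 and -1.34, edgeR adjusted p 0.0018 and 0.000325). PLK3 had the only called interaction of these 12 genes (-0.78, edgeR adjusted p 0.0358).

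**Figure D5:**
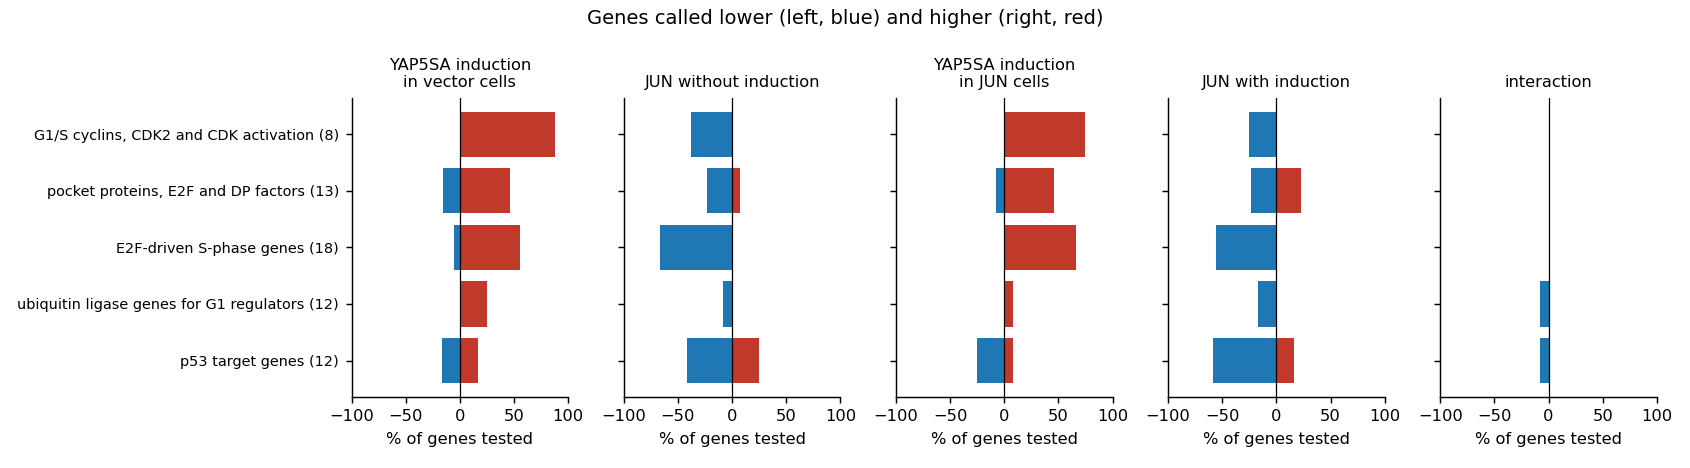
Share of tested genes (x axis, percent) called lower (blue, left of 0) and higher (red, right of 0) by edgeR in 5 lists of G1 and p53 genes (y axis, number of genes in brackets), 1 panel for each comparison. The G1/S and E2F-driven lists point right in both induction panels and left in both JUN panels, except for 1 of the 18 E2F-driven genes in vector cells.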

How the data were processed

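Poly(A) RNA of 12 libraries was sequenced as single-end reads. The authors trimmed the reads with Cutadapt, aligned them to hg19 with Bowtie2 and counted them per gene with countOverlaps (the submitters' processing notes name cutadapt 4.2 and Bowtie2 2.3.5.1). They deposited these values as raw counts for 23459 Entrez gene IDs, with no normalization. The gene annotation and any use of strand are not given in the sources used here. Bowtie2 does not split reads over introns, so reads on exon junctions are largely missing, alike in all libraries.

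All 12 columns matched 1 sample each by name. Symbols came from a RefSeq gene table (99.4% of IDs matched), and positions, merged exon lengths and GC content from GENCODE on GRCh37, the assembly of hg19. Promoter windows are RefSeq's on GRCh38.p14. Within groups, libraries were farther apart than counting alone gives (chi-square per degree of freedom 8.07 to 60.9), so none was a copy. Counts were analysed with edgeR 4.0.16 under R 4.3.3 (filterByExpr with minimum count 10 and minimum total 15, TMM, robust quasi-likelihood fit to all 12 libraries, Benjamini-Hochberg adjustment), after a test on simulated counts. Each SE is the log2 fold change over the square root of F. Lists are described by counts and medians, with no set test. Alternatives were DESeq2 1.42.0, RLE or upper-quartile scaling, no filter, at least 5 CPM on average, a fit to the compared libraries alone, a block for the replicate number, a GC term for each library, loess offsets on GC, and each library left out. A GC term joined with the block was added after seeing the data.

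The 10 genes and all lists were chosen with earlier results of these data known. Genes named from a list were those called with the highest or lowest log2 fold changes, at most 2 each way per comparison, at a mean of at least 1 CPM over all libraries. A gene that this rule names among the E2F-driven S-phase genes is not reported here. Like patterns were sought for genes called with a change of at least 1 on the log2 scale, up or down.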

Additional observations from a re-analysis of the deposited data

Results flagged for a closer look

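The induction effects of CCND1 and CCND2 differed between JUN and vector cells by the interaction term, by -0.99 and -1.25 log2 (edgeR adjusted p 0.00879 and 0.00967, 3 libraries in each group). For CDKN1A every Dox library lay above every EtOH library in vector cells (log2 0.36) and below every EtOH library in JUN cells (-0.25). The test of that difference did not pass the threshold (edgeR adjusted p 0.0628). Single libraries were not tested as outliers, since each group holds 3.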

How the results depend on the processing

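Of the 27 called results for the 10 genes, 18 kept their call and all 27 kept their direction in the 21 or 22 alternatives tried for each. Of the 23 results not called, 7 were called in at least 1 alternative and 6 changed sign in at least 1. With no call on either side, the sign turned for the CDKN1B interaction (0.0058 with upper-quartile scaling, 0.013 with GC loess offsets, -0.050 to 0.018 leaving out 1 library), for CCND3 on induction in vector cells and CDKN1A with JUN alone (0.0032 and 0.0030 with GC loess offsets), and, leaving out single libraries, for the interactions of CDKN1C (-0.80 to 0.061), CDKN2D (-0.11 to 0.26) and CCND3 (-0.21 to 0.056). The cause was not tested. The replicate numbers gave a mixed picture of pairing. Same-number correlations of deviations from the group means ran from -0.26 to 0.47, with 7 of 18 over 0.1. In 11 of 18 cases the correlation was highest with the own number, so partial pairing is possible, and the main fit had no block. With the replicate number as a block, induction in vector cells called 4588 genes in place of 4443 and the interaction 197 in place of 165, CDK4 on induction in vector cells was not called (edgeR adjusted p 0.0502) and CCND2 with JUN under induction was (0.0465). The interaction called 358 genes with DESeq2, 288 with the GC term and 286 with the GC term and the block. JUN with induction called 3439 genes on its own 6 libraries. With 1 library left out, the number of the 10 genes called ran from 5 to 8 for induction in vector cells and from 2 to 6 in JUN cells.

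Over all genes, leaving out 1 library gave 97 to 242 calls for the interaction, 3823 to 6765 for JUN without induction, 2082 to 3861 for induction in JUN cells, 3326 to 4865 for induction in vector cells and 4025 to 5539 for JUN with induction. The share of CCND1 in the D cyclin sum of the 4 groups was 39.1%, 64.2%, 43.5% and 54.0% by longest transcript and 52.4%, 73.7%, 56.0% and 64.5% without division by length. The share of CDKN1A among CIP/KIP genes was 85.9%, 93.1%, 87.3% and 89.1%, and 79.99%, 88.2%, 79.8% and 81.3%. Depth limits CDKN1C in JUN Dox (6 to 27 reads) and CDKN2D, which had 108 to 226 reads a library.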
